A study of Mus musculus with 8 samples.

Results

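Expression of 31 genes of the postsynaptic density was followed in the mouse hippocampus. The genes were taken by name from a list of postsynaptic scaffold, adhesion, kinase and metabotropic receptor genes, and 31 of the 31 were found among the 24421 genes of the count tables. The rule goes by gene name and sets no threshold on a measured value. RNA came from the hippocampus of wildtype C57BL/6J offspring labelled male. One arm, called IUGR for intrauterine growth retardation, was born to dams injected intraperitoneally with dexamethasone, a synthetic glucocorticoid, at 1 mg/kg per day for 5 days from 14.5 days post coitum. The other, called NS, was born to dams given the same volume of normal saline. Both were sampled at postnatal day 3 and at week 8, which gives 4 groups of 2 libraries (n = 2 throughout). The labels do not say whether libraries came from separate animals or litters, so a p-value here reflects the variation among these libraries, part of which may be technical.

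The postsynaptic density is the protein layer beneath the membrane of an excitatory synapse. Dlg proteins hold glutamate receptors and adhesion proteins in place, Dlgap proteins join them to Shank, and Shank and Homer link that core to the actin skeleton and to metabotropic receptors. Calcium that enters through the synapse binds calmodulin, which switches on CaM kinase II and the phosphatase calcineurin, with opposite actions on synaptic strength. In the rodent hippocampus this layer assembles over the first postnatal weeks, and the alpha subunit of CaM kinase II is among the most abundant proteins of the mature forebrain synapse.

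The 8 libraries held between 13030277 and 18993050 counts. Some stood apart in ways the treatment does not describe. At postnatal day 3 both libraries numbered 2 went against the label male, with 4998 and 5130 counts of Xist, the RNA of the inactive X chromosome, against 4 and 81 in those numbered 1. At week 8 libraries of the same number resembled each other more (correlation across genes of log2 CPM 0.987 and 0.988) than the libraries of a group did (0.908 in NS and 0.928 in IUGR). Rpph1, the RNA of ribonuclease P, had 0 and 2 counts in the week 8 libraries numbered 2 and between 872768 and 1119905 in the other 6. Eef1a1, a translation elongation factor, held 546550 counts in IUGR replicate 1 of week 8 and between 39691 and 171762 in the other 7 libraries. Week 8 values are therefore given for each replicate number, and counts of calls also without the libraries in doubt. Neuron markers were found in all libraries, and the summed level of the 12 listed was 5049 to 5507 CPM (the count scaled to the library total) at postnatal day 3 and in replicate 1 of week 8, and 8497 and 8794 CPM in replicate 2 of week 8. In bulk RNA, fewer cells of a type and less RNA per cell cannot be told apart.

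Together the 31 genes took between 0.353 and 0.403% of all counts at postnatal day 3. At week 8 they took 0.648% in NS and 0.691% in IUGR in replicate 1, and 1.87% and 1.79% in replicate 2. The share was thus higher in the 4 libraries of week 8 than in the 4 of postnatal day 3, and the week 8 libraries numbered 2 lay well above those numbered 1 in both treatment groups. Per kilobase of gene length, the most abundant of them at postnatal day 3 was Camk2b, the beta subunit of CaM kinase II, at 82.5 and 90.8 CPM per kilobase in NS and 77.6 and 77.9 in IUGR. The lowest there were Dlgap2, between 2.79 and 3.68 CPM per kilobase, and Homer3, between 2.24 and 3.38. The ranges of Dlgap2 and Homer3 overlapped. At week 8 Camk2a and Nrgn led in the libraries numbered 2, at 994 and 1014 CPM per kilobase in NS and 906 and 844 in IUGR, while Ppp3r1 led in those numbered 1, at 209 in NS and 191 in IUGR.

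**Figure D1:**
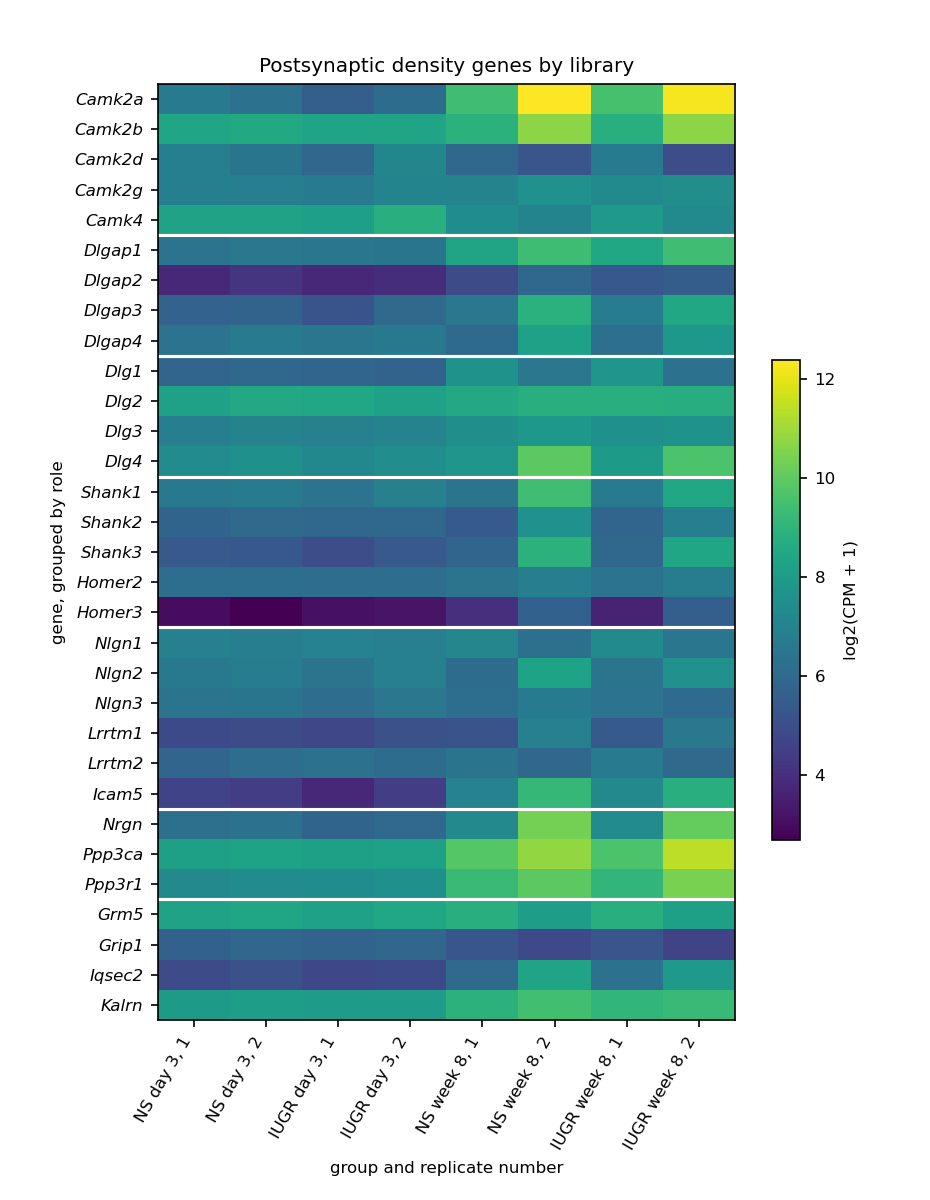
Level of the 31 genes in each of the 8 libraries, as log2(CPM + 1), with 1 row per gene grouped by role and 1 column per library (group and replicate number). Columns of week 8 replicate 2 are brighter than those of week 8 replicate 1 for most rows, with Camk2a at 5325 CPM in NS and 4854 CPM in IUGR.

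Week 8 was compared with postnatal day 3 within each treatment group to follow maturation. In NS, 6 of the 31 genes rose and 0 fell at an adjusted p under 0.05, where 7.7% of the 15999 genes tested rose and 6.44% fell. In IUGR 7 rose and 0 fell, against 9.34% and 7.48% of all genes. The 6 that rose in NS were Dlgap1, Dlgap2, Camk2a, Ppp3r1, Kalrn and Icam5, and each of them rose in IUGR as well, where Ppp3ca was the seventh. The median log2 fold change of the 31 was 1.33 in NS and 1.27 in IUGR, beside 0.04 and 0.02 over all genes tested. These medians join unlike week 8 libraries. Between libraries numbered 1 the members' median log2 difference was 0.485 in NS and 0.734 in IUGR. Between those numbered 2 it was 1.63 and 1.37. Over all genes tested the same medians lay between -0.034 and -0.004. At an unadjusted p under 0.05 there were 17 members in each group, beside 32.3% of all genes in NS and 34.3% in IUGR. At the adjusted threshold and in either direction, 14.1% of all genes were called in NS and 16.8% in IUGR. Week 8 libraries lay above those of postnatal day 3 without overlap for 20 members in NS, beside 29.2% of all genes, and for 20 in IUGR, beside 28.1%. They lay below for 3 members in NS, beside 32.6% of all genes (61.8% in either direction), and for 2 in IUGR, beside 37.9% (66.0% in either direction).

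The number of calls depended on single libraries. With any 1 of the 4 libraries of postnatal day 3 left out, 0 members passed in NS, beside between 0.31% and 5.0% of all genes. In IUGR 1 passed (Dlgap1) without either NS library of that age, beside 6.25% and 6.41% of all genes, and 0 without either IUGR library, beside 0.559% and 0.953%. With both libraries numbered 2 of that age left out, which go against their label, 0 members passed in either group and 0.0% of all genes did. Without NS replicate 2 of week 8 the call was left for 1 member in NS (Dlgap1), beside 8.0% of all genes, and without NS replicate 1 it was made for 17, beside 23.0%. Without IUGR replicate 2 of week 8 it was left for 1 in IUGR (Dlgap1), beside 5.49% of all genes. IUGR had 11 calls without either NS library of week 8, beside 24.6% and 24.7%. With both week 8 libraries numbered 1 left out, 27 members passed in NS and 28 in IUGR, beside 57.8% and 56.0% of all genes. With both numbered 2 left out, 18 and 23 passed, beside 37.9% and 41.4%. DESeq2 on all libraries called 14 in NS, beside 23.5% of its genes, and 15 in IUGR, beside 25.0%. A fit with the replicate number as a block within each age called 23 in NS, beside 47.9% of all genes, and 24 in IUGR, beside 50.4%. These shares of all genes move with the members' counts.

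The size of the rise differed between the replicate numbers, so each of the 4 same-numbered comparisons (replicate 1 and replicate 2, in NS and in IUGR) was also read alone. At week 8, 20 genes were higher in all 4, beside 28.4% of all genes tested, and 2, Camk4 and Grip1, were lower in all 4, beside 29.7% of all genes. The other 9 were Dlgap4, Shank1, Shank2, Camk2d, Nlgn1, Nlgn2, Nlgn3, Lrrtm2 and Grm5, whose direction differed among the 4. By more than 1 log2 unit, 8 were higher in each of the 4, beside 5.96% of all genes. These were Dlgap1, Dlgap2, Camk2a, Nrgn, Ppp3ca, Ppp3r1, Iqsec2 and Icam5.

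Among the kinases the alpha subunit of CaM kinase II, Camk2a, had the largest fold change of the 31. Camk2a lies on chromosome 18 at 60925618 to 60988152 of GRCm38, on the plus strand. Its NS libraries held 100.2 and 80.1 CPM at postnatal day 3 and 682 and 5325 CPM at week 8. In IUGR it read 49.0 and 68.4 CPM and then 761.5 and 4854 CPM. Each week 8 library was above each library of postnatal day 3, and replicate 2 of week 8 was far above replicate 1. The log2 fold change was 5.10 ± 1.27 (SE) in NS (edgeR adjusted p = 0.0438) and 5.69 ± 1.30 in IUGR (edgeR adjusted p = 0.0307), which is 34.2-fold and 51.6-fold. Within replicate 1 the log2 difference was 2.77 in NS and 4.02 in IUGR, and within replicate 2 it was 6.08 and 6.25. Camk2b, the subunit that was highest at postnatal day 3, then read 344 and 378 CPM in the NS libraries, with 323 and 324 CPM in those of IUGR. At week 8 it read 477 and 1679 CPM in the NS libraries beside 447 and 1658 CPM in IUGR, with adjusted p-values of 0.191 and 0.145 from edgeR. Its week 8 libraries lay above those of postnatal day 3 in both treatment groups, but their own spread was large. Camk2g, the gamma subunit, had log2 fold changes of 0.54 ± 0.25 and 0.61 ± 0.25. Camk2d, the delta subunit, read 115 and 87.7 CPM in NS at postnatal day 3 and 62.1 and 37.1 CPM at week 8. In IUGR Camk2d read 58.8 and 140.3 CPM and then 105 and 30.8 CPM, so that the ages overlapped. Camk4, a calmodulin-activated kinase of the nucleus, read 308 and 309 CPM in NS at postnatal day 3 and 169 and 135 CPM at week 8, without overlap (edgeR adjusted p = 0.0780). In IUGR its log2 fold change was -0.78 ± 0.31 (edgeR adjusted p = 0.127). DESeq2 on all libraries called Camk4 lower in NS.

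Among the CaM kinase II subunits, the share of alpha was higher at week 8 than at postnatal day 3. Per kilobase, Camk2a made up 12.8 and 10.2% of the summed level of the 4 subunit genes in NS at postnatal day 3, and 8.22 ± 1.03% (SD, n = 2) in IUGR. At week 8 its share was 44.7 and 68.4% in NS and 46.6 and 66.9% in IUGR, above every library of postnatal day 3 under both replicate numbers. Camk2b, which also binds actin, went from between 54.6 and 63.5% to 40.3 and 27.7% in the NS libraries and to 35.2 and 29.4% in those of IUGR. The share of Camk2g went from between 21.0 and 25.0% to 12.5 and 3.60% in the NS libraries and to 14.2 and 3.50% in those of IUGR. On raw counts, without the length division, Camk2a took 14.9 and 12.1% in NS at postnatal day 3 and 50.4 and 73.6% at week 8. A share within a family shows unequal change, not which member changed.

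**Figure D2:**
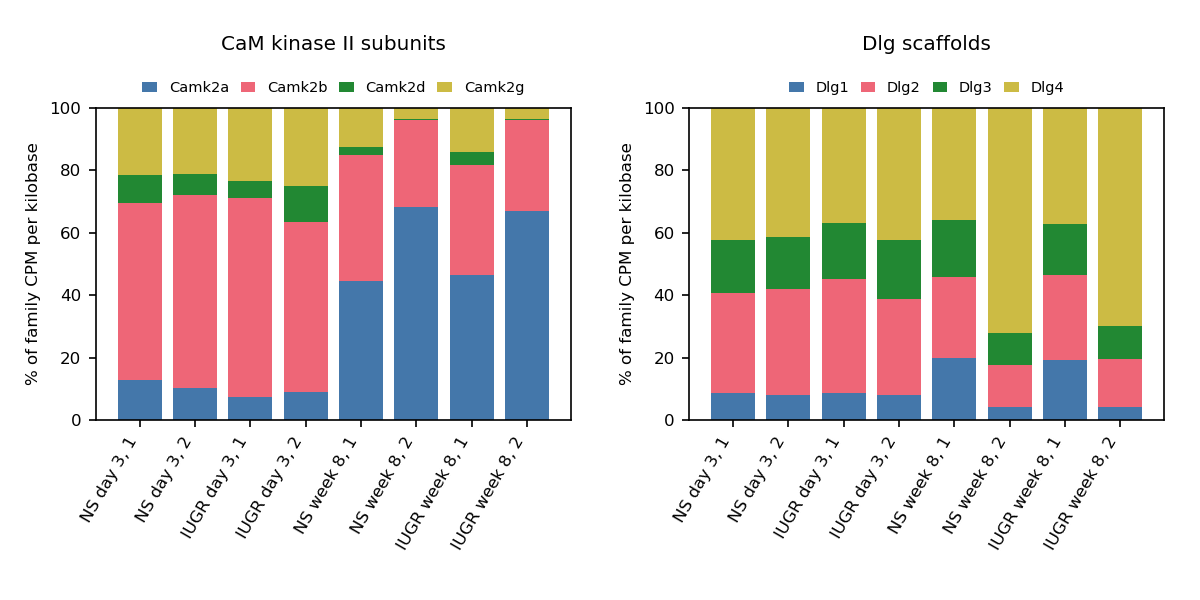
Share of each gene in the summed CPM per kilobase of its family, in percent, for CaM kinase II subunits and Dlg scaffolds, with 1 bar per library. Camk2a takes at most 12.8% at postnatal day 3 and at least 44.7% at week 8, and Dlg4 takes 72.3% and 69.9% in the week 8 libraries numbered 2 and at most 42.3% in the other 6.

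Of the calcineurin and calmodulin-binding genes, Ppp3r1 rose in both treatment groups and Ppp3ca in IUGR, while Nrgn did not pass. Ppp3r1 (chromosome 11, 17159263 to 17200375, plus strand), the calcium-binding regulatory subunit of calcineurin, read 152 and 163 CPM in NS at postnatal day 3 and 591.5 and 971 CPM at week 8. In IUGR it read 171 and 188.5 CPM and then 540.5 and 1392 CPM. All week 8 libraries were above all libraries of postnatal day 3, with log2 fold changes of 2.35 ± 0.49 (edgeR adjusted p = 0.0277) and 2.54 ± 0.49 (edgeR adjusted p = 0.0197). It shares 14.3% of its exon bases with Wdr92, so part of its count is uncertain. Ppp3ca, the catalytic alpha subunit, read 292 and 313 CPM in the NS libraries against 291 and 303 CPM in those of IUGR at postnatal day 3. At week 8 it read 905 and 1771 CPM in the NS libraries, with 793 and 2698 CPM in IUGR. Ppp3ca passed in IUGR (2.66 ± 0.62, edgeR adjusted p = 0.0328) and not in NS (2.18 ± 0.61, edgeR adjusted p = 0.0606), and the difference between these effects was 0.49 ± 0.83 (edgeR adjusted p = 1). Per kilobase, Ppp3ca made up between 46.1 and 53.1% of the sum of these 2 genes in all 8 libraries. On raw counts its share was between 59.5 and 66.0%. The sum leaves out other catalytic genes of calcineurin, so it is not the balance of catalytic and regulatory RNA. Ppp3cb, 1 of these, read between 58.25 and 66.35 CPM per kilobase at postnatal day 3. At week 8 it read 53.0 and 97.3 in the NS libraries and 58.3 and 138 in those of IUGR. Nrgn, neurogranin, which holds calmodulin in the resting dendrite, read 75.2 and 81.4 CPM in NS at postnatal day 3 and 153 and 1312 CPM at week 8. In IUGR it read 55.5 and 63.3 CPM and then 163 and 1092 CPM. Its log2 fold changes of 3.26 ± 1.18 and 3.51 ± 1.19 did not pass (edgeR adjusted p = 0.112 and 0.0892), and replicate 2 of week 8 was above replicate 1 by 3.12 in NS and 2.74 in IUGR on the log2 scale.

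The Dlgap scaffolds held 2 of the called genes. Dlgap1, which binds the guanylate kinase domain of Dlg proteins, lies on chromosome 17 at 69969073 to 70821413, plus strand. It read 82.1 and 93.7 CPM in the NS libraries beside 88.7 and 87.3 CPM in those of IUGR at postnatal day 3. At week 8 it read 323 and 654 CPM in the NS libraries against 365 and 684 CPM in IUGR. The log2 fold changes were 2.51 ± 0.45 (edgeR adjusted p = 0.0181) and 2.68 ± 0.45 (edgeR adjusted p = 0.0135), the smallest adjusted p-values among the 31. Dlgap2 (chromosome 8, 14095865 to 14847680, plus strand), a second member of the same scaffold family, was low, at 12.6 and 16.6 CPM in the NS libraries, with 13.1 and 14.4 CPM in those of IUGR at postnatal day 3. It read 28.7 and 62.2 CPM in the NS libraries beside 39.9 and 45.6 CPM in IUGR at week 8, with log2 fold changes of 1.67 ± 0.39 (edgeR adjusted p = 0.0368) and 1.74 ± 0.39 (edgeR adjusted p = 0.0290). Dlgap3 was higher at week 8 in every same-numbered comparison but spread from 93.2 to 472 CPM within NS. Dlgap4 was lower at week 8 in replicate 1 (log2 differences -0.34 and -0.17) and higher in replicate 2 (1.63 and 1.37). Dlgap1 made up 26.4 and 26.2% of the Dlgap family per kilobase in NS at postnatal day 3 and 51.2 and 32.1% at week 8, and Dlgap4 went from 35.5 and 37.8% to 13.7 and 20.0%.

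None of the 4 Dlg genes passed at the adjusted threshold, and their patterns differed. Dlg4, the gene of PSD-95, read 164 and 185 CPM in the NS libraries against 148 and 171 CPM in those of IUGR at postnatal day 3. At week 8 it read 212 and 969 CPM in the NS libraries, with 250 and 794 CPM in IUGR, with log2 fold changes of 1.79 ± 0.78 and 1.82 ± 0.78 (edgeR adjusted p = 0.169 and 0.155). Dlg1, the gene of SAP97, ran the other way between the week 8 libraries: 197 and 90.7 CPM in the NS libraries beside 215 and 81.3 CPM in those of IUGR, from between 53.5 and 59.6 CPM at postnatal day 3. Dlg1 was thus above its neonatal range in all 4 week 8 libraries, but more so in replicate 1, where Dlg4 was nearer to its neonatal range. Dlg3, the gene of SAP102 on the X chromosome, had a log2 fold change of 0.80 ± 0.21 in NS (edgeR adjusted p = 0.0512) and 0.75 ± 0.21 in IUGR (edgeR adjusted p = 0.0558). Its values of 112 and 129 CPM in the NS libraries against 121 and 129 CPM in IUGR at postnatal day 3, and of 182 to 230.0 CPM at week 8, did not overlap. DESeq2, RLE scaling, limma voom and a filter on the mean count called Dlg3 higher in NS. Dlg2, the gene of PSD-93, had the smallest change of the 4, 0.30 ± 0.23 and 0.51 ± 0.23. Per kilobase, Dlg4 made up 37.0 to 42.3% of the family at postnatal day 3, 35.9 and 37.1% in replicate 1 of week 8 and 72.3 and 69.9% in replicate 2.

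**Figure D3:**
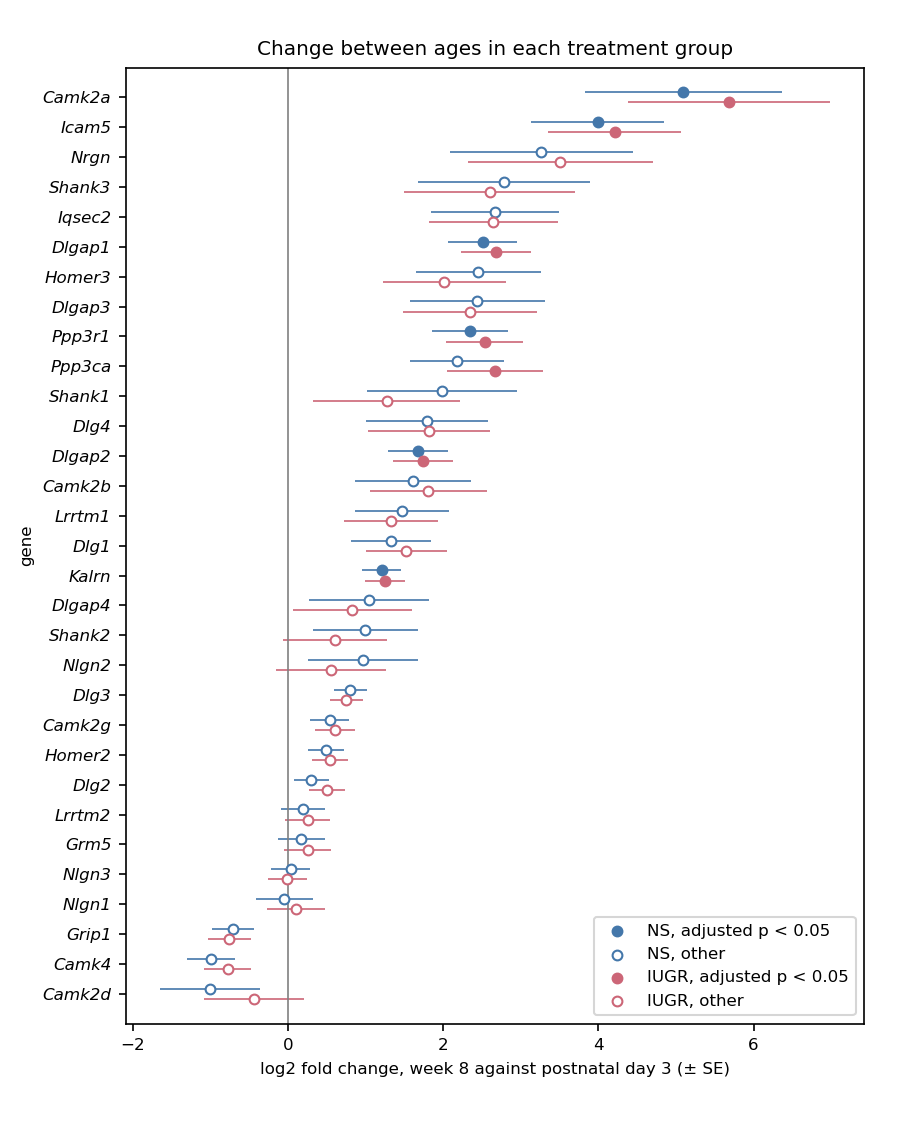
Log2 fold change of each of the 31 genes from postnatal day 3 to week 8 in NS (blue) and IUGR (red), with 2 libraries per group. Bars are 1 SE from the edgeR fit and filled points have an adjusted p under 0.05, which 6 genes have in NS and 7 in IUGR, all to the right of 0.

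The Shank and Homer genes had positive medians and no call. Shank3, which joins Dlgap to Homer and actin, read 40.8 and 39.9 CPM in NS at postnatal day 3 and 56.9 and 485 CPM at week 8. In IUGR it read 30.6 and 40.8 CPM and then 60.7 and 340.3 CPM, so that replicate 1 of week 8 was much nearer to postnatal day 3 than replicate 2 was. Shank1 read 97.7 and 102 CPM in NS and then 84.3 and 686 CPM, and 82.8 and 120.3 CPM in IUGR and then 105 and 349 CPM. For Shank1 the ages overlapped in both treatment groups. Shank2 was also lower at week 8 in replicate 1 (log2 differences -0.36 and -0.03) and higher in replicate 2 (1.58 and 1.05). When both week 8 libraries numbered 2 were left out, Shank2 and Dlgap4 were called lower in NS, and when both numbered 1 were left out they were called higher, so their direction differed by library. Homer3 read 7.15 and 5.48 CPM in the NS libraries, with 7.82 and 8.27 CPM in those of IUGR at postnatal day 3, and 15.6 and 51.8 CPM in the NS libraries beside 11.2 and 49.0 CPM in IUGR at week 8. It shares 25.4% of its exon bases with Ddx49 on the opposite strand, and whether counting used the strand is not given in the sources used here. Homer2, which tethers metabotropic receptors, had log2 fold changes of 0.49 ± 0.23 and 0.54 ± 0.23.

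Of the adhesion genes only Icam5 passed. Icam5 (chromosome 9, 21032073 to 21039036, plus strand), telencephalin, an adhesion molecule of forebrain dendrites, read 23.8 and 20.8 CPM in the NS libraries against 12.9 and 21.2 CPM in those of IUGR at postnatal day 3. At week 8 it read 125 and 566 CPM in the NS libraries, with 150.5 and 434 CPM in IUGR. The log2 fold change was 3.99 ± 0.85 in NS (edgeR adjusted p = 0.0291) and 4.21 ± 0.86 in IUGR (edgeR adjusted p = 0.0228). The annotation places unnamed gene models on the opposite strand over 30.8% of its exon bases, so part of its count is uncertain. The neuroligins, receptors for presynaptic neurexins, had log2 fold changes from -0.05 to 0.97 and none passed. Nlgn1, the neuroligin of excitatory synapses, read 118 and 113 CPM in NS at postnatal day 3 and 143 and 76.6 CPM at week 8. Nlgn2, the neuroligin of inhibitory synapses, read 97.3 and 106.5 CPM and then 68.4 and 319 CPM. They moved in opposite directions between the week 8 libraries, and Nlgn2 went from 23.8 to 61.9% of the family per kilobase in NS and from 25.5 to 54.1% in IUGR between replicate 1 and replicate 2. Nlgn3 shares 41.2% of its exon bases with another gene model and had log2 fold changes of 0.03 and -0.01. Lrrtm1 had log2 fold changes of 1.46 ± 0.60 and 1.32 ± 0.60, and Lrrtm2, which read 56.7 and 71.0 CPM in NS and then 84.0 and 59.2 CPM, of 0.19 ± 0.29 and 0.26 ± 0.29. Both encode leucine-rich ligands of neurexins.

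In the remaining group, Kalrn rose by the smallest amount of the called genes and with the smallest spread. Kalrn (chromosome 16, 33969073 to 34573532, minus strand), an exchange factor for Rac that shapes spines, read 248 and 277 CPM in the NS libraries beside 254 and 262 CPM in those of IUGR at postnatal day 3. At week 8 it read 487 and 699 CPM in the NS libraries against 539 and 599.5 CPM in IUGR, with log2 fold changes of 1.21 ± 0.26 (edgeR adjusted p = 0.0283) and 1.25 ± 0.26 (edgeR adjusted p = 0.0227). Iqsec2, an X-linked exchange factor for Arf6, read 29.1 and 33.6 CPM in the NS libraries, with 26.5 and 28 CPM in those of IUGR at postnatal day 3, and 62.9 and 325 CPM in the NS libraries beside 78.2 and 239 CPM in IUGR at week 8. Its log2 fold changes of 2.67 ± 0.83 and 2.65 ± 0.83 did not pass (edgeR adjusted p = 0.0794 and 0.0738). Grm5, the metabotropic glutamate receptor that Homer binds, read 307 and 344 CPM in NS at postnatal day 3 and 438 and 281 CPM at week 8, and its log2 fold changes were 0.17 ± 0.30 and 0.25 ± 0.30. Grip1, a scaffold that carries AMPA receptors, read 51.0 and 57.9 CPM in NS and then 37.9 and 27.5 CPM. In IUGR Grip1 read 53.7 and 58.5 CPM and then 37.3 and 24.4 CPM, so that each week 8 library was below each library of postnatal day 3. Its log2 fold changes of -0.71 ± 0.27 and -0.76 ± 0.27 did not pass (edgeR adjusted p = 0.130 and 0.104).

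Week 8 replicate 2 differed from replicate 1 in most of these genes, in NS and in IUGR alike. The median log2 difference between the 2 libraries was 1.04 in both groups, beside -0.02 and 0.00 over all genes tested. In NS 16 of the 31 were higher by more than 1 log2 unit in replicate 2, beside 12.8% of all genes, and in IUGR also 16, beside 9.91%. In both groups 14 were so, beside 7.58% of all genes, among them Nrgn (log2 differences 3.12 and 2.74), Shank3 (3.09 and 2.48) and Camk2a (2.99 and 2.68). Above replicate 1 by any amount in both groups were 22, beside 40.2% of all genes. Below it in both were 7, beside 41.1% of all genes, namely Dlg1, Camk2d, Camk4, Nlgn1, Lrrtm2, Grm5 and Grip1. Lower by more than 1 log2 unit was 1 in NS (Dlg1), beside 11.9% of all genes, and 2 in IUGR (Dlg1 and Camk2d), beside 9.48%. At postnatal day 3 the median differences between the libraries of a group were 0.09 and 0.11. Of the 12 neuron markers 11 were higher in replicate 2 than in replicate 1 in both groups. In NS the relative difference was smallest for Map2, at 873 and 991 CPM, and largest for Thy1, at 125 and 671.5 CPM. Elavl4 was lower in replicate 2, with 72.3 CPM in replicate 1 and 56.0 CPM in replicate 2 of NS, and 79.1 and 55.3 CPM in IUGR. The summed 12 hippocampal field markers were 1057 and 2287 CPM in the NS libraries against 1021 and 2319 CPM in those of IUGR. Choroid plexus markers summed to 6717 CPM in NS replicate 1 and to between 66.0 and 83.5 CPM in the other 3 week 8 libraries. Meningeal markers summed to 2651 CPM in replicate 1 and 596 CPM in replicate 2 of NS, and to 1247 and 732 CPM in IUGR. The part of these in the values of the postsynaptic genes was not tested.

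The difference between the week 8 libraries went with base composition. GC content of the longest coding transcript ran from 38.4% in Lrrtm2 to 63.9% in Dlgap3, with a median of 51.8%. Across the 31 genes it correlated with the log2 difference between replicates 2 and 1 at Pearson 0.82 (Spearman 0.82) in NS and 0.68 (0.67) in IUGR. Over the 14448 tested genes with a coding transcript the Pearson values were 0.47 and 0.31. Between the libraries of postnatal day 3 the members' values were -0.10 and 0.36. These are descriptions across genes of the same libraries, which are not independent replicates. Of the 15 members above the median GC content, 14 were over 1 log2 unit higher in replicate 2 of NS (median 2.23), and of the 16 at or below it 2 were (median 0.35). The log2 difference between ages in NS was 0.71 and 0.34 at the median of these GC-rich and GC-poor members in replicate 1, and 2.78 and 0.47 in replicate 2. In IUGR the medians were 0.79 and 0.65 in replicate 1, and 2.47 and 0.56 in replicate 2. Above most members of like GC content were Dlg4, at 46.8% GC with log2 differences of 2.21 and 1.67, and Ppp3ca, at 45.4% with 0.99 and 1.77. The longest coding transcript need not be the RNA that was counted. For Dlg4 it has 6326 bases, where the gene length deposited with the counts is 3326, and for Camk4 2717 against 12331.

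**Figure D4:**
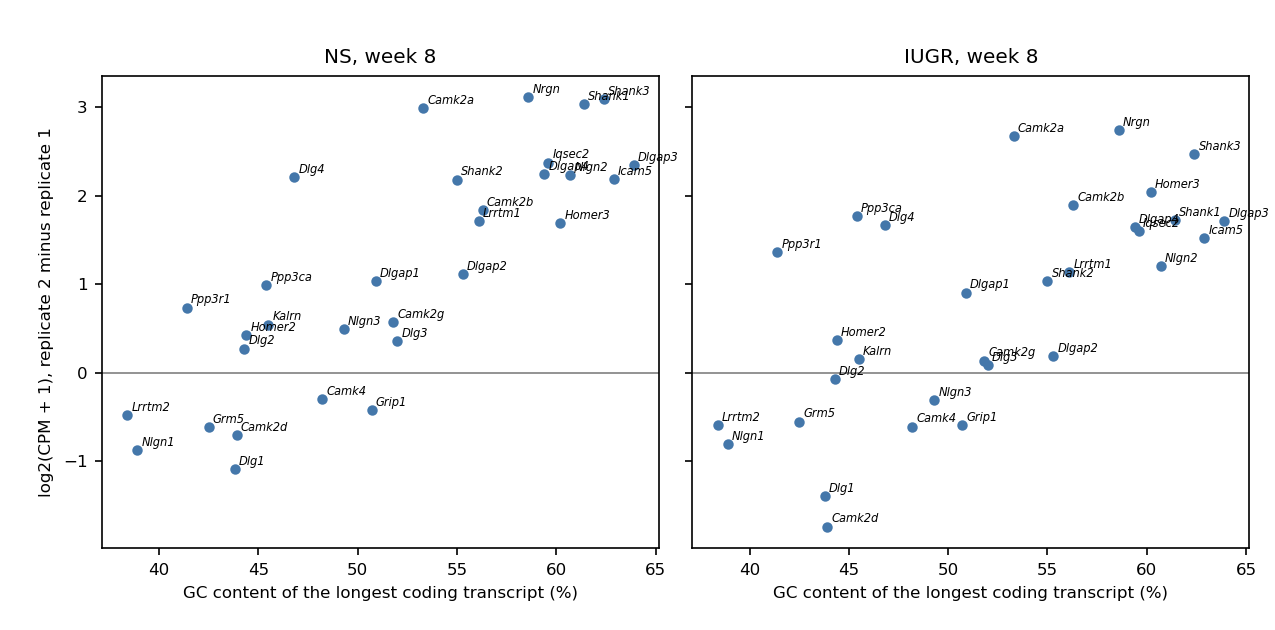
Log2 difference in TMM-scaled CPM + 1 between week 8 replicate 2 and replicate 1 against the GC content of the longest coding transcript, for the 31 genes in NS (left) and IUGR (right), 1 point per gene. Points lie higher toward the right, where Dlgap3 at 63.9% GC is at 2.35 in NS and 1.72 in IUGR, while Nlgn1 at 38.9% is at -0.87 and -0.80.

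Promoter sequences are shown for 4 members to set the bases just before the start beside that division. RefSeq gave windows for 21 of the 31 genes (35 windows on GRCm38.p6), of which the 250 bases before the start were read. CG dinucleotides numbered 9 per window at the median, beside 6 over 32851 windows of all genes. Dlgap1 (9 CG) and Icam5 (16 CG) rose in both treatment groups. Icam5, Shank3 (31 CG) and Nlgn2 (18 CG) are GC-rich members. Each of them was higher by more than 1 log2 unit in week 8 replicate 2 in both groups. A further window of Dlgap1 held 7 CG and is not shown. Windows of other members did not all follow the division. Among GC-rich members, the window of Dlgap3 held 2 CG and that of Lrrtm1 5 CG. Among GC-poor members, a window of Homer2 held 40 CG, of Grip1 31, of Ppp3r1 29 and of Camk2d 23. Further windows held 3 CG in Homer2, and 6 and 1 in Grip1. The sequences run 5′ to 3′ on the strand of the gene, with CG dinucleotides in capitals, at chr17:69968823-69969072 (plus) for Dlgap1, chr9:21031788-21032037 (plus) for Icam5, chr15:89499358-89499607 (plus) for Shank3 and chr11:69837785-69838034 (minus) for Nlgn2.
Dlgap1: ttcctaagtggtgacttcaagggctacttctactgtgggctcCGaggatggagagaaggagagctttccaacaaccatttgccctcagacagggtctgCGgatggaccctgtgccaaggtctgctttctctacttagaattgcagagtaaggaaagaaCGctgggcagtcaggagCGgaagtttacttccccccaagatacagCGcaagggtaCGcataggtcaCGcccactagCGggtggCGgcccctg
Icam5: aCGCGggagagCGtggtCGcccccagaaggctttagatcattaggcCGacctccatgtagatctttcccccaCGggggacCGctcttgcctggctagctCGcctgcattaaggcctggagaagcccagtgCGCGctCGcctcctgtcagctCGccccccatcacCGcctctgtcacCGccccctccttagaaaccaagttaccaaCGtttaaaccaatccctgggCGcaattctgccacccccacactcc
Shank3: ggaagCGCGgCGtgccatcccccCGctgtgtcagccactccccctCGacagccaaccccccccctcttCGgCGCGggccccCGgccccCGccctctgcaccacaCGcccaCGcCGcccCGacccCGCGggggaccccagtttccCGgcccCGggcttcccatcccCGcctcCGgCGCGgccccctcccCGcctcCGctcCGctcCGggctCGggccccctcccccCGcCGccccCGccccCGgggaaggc
Nlgn2: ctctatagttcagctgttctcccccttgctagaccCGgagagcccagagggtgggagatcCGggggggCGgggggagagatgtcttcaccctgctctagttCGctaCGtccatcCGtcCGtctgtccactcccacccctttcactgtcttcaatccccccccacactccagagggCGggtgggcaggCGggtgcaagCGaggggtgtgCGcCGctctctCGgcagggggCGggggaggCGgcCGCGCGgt
Searched on both strands, the Sp1 letters GGGCGG occurred in 45.7% of the members' windows and 32.7% of all windows, and the E-box letters CANNTG in 62.9% and 66.2%. The Egr letters GCGTGGGCG occurred in 1 of the 35 windows, that of Shank3 above, beside 0.5% of all windows, and the CRE letters TGACGTCA in 0 of 35, beside 1.5%. Letters in a window are a description and say nothing of binding.

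At postnatal day 3 no difference between IUGR and NS passed for any of the 31 genes, nor for any of the 15999 tested (0.0%). None of the 31 had an unadjusted p under 0.05 in edgeR on all libraries, and DESeq2 on all libraries also called 0. Of all 15999 genes, 96 had such a p in edgeR. That fit estimates spread over both ages, with a biological coefficient of variation of 0.374, where this age alone gave 0.154. It could thus miss a difference at this age. On the 4 libraries of this age alone, 2 members had an unadjusted p under 0.05 in edgeR and 2 in DESeq2. None of these passed, and the share of all genes at that p was not counted. DESeq2 on the 4 libraries of that age alone called 2 genes higher and 59 lower of 15732 (0.388%), with no member among them. The median log2 fold change of the 31 was -0.02, beside 0.01 over all genes, and single values ran from -0.62 to 0.35. Camk2a had the largest of these. Its NS libraries read 100.2 and 80.1 CPM and its IUGR libraries 49.0 and 68.4 CPM, which did not overlap. The log2 fold change was -0.62 ± 1.07 (edgeR adjusted p = 1). On the 4 libraries of that age alone the unadjusted p was 0.0102 (edgeR, adjusted 0.804) and 0.000872 (DESeq2, adjusted 0.178), and no alternative passed. Leaving out both libraries numbered 2 of that age, which left 1 library per group there, gave -1.02. Between the libraries numbered 2 the log2 difference was -0.23. Nrgn read 75.2 and 81.4 CPM in the NS libraries, with 55.5 and 63.3 CPM in IUGR (-0.40 ± 1.08, edgeR adjusted p = 1). Groups did not overlap in 3 higher members (Homer3, Nlgn1 and Ppp3r1), beside 19.7% of all genes, and in 5 lower members (Homer2, Camk2a, Camk2b, Nrgn and Iqsec2), beside 16.6% (36.3% in either direction), so the members' shares were not above the background. The 10 meningeal markers summed to 1447 and 1220 CPM in the NS libraries beside 564 and 614 CPM in those of IUGR at this age. Choroid plexus markers summed to 85.5 and 6319 CPM in the NS libraries and to 3243 and 453 CPM in those of IUGR. Thalamus markers summed to 238 and 204 CPM in NS and to 198 and 469 CPM in IUGR. The part of these markers' tissues in the members' values was not tested.

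Of the libraries of postnatal day 3 that go against their label, 1 stands in each treatment group. The 3 X-linked members read between 112 and 129 CPM for Dlg3, 71.1 and 90.7 CPM for Nlgn3 and 26.5 and 33.6 CPM for Iqsec2 at that age. Each was higher in replicate 2 than in replicate 1 of its group, by log2 differences of 0.05 to 0.33. Most members went this way: 22 of the 31 were higher in replicate 2 in NS and 23 in IUGR. Of the 15999 genes tested, 7847 and 7969 were. The median over the 31 members was 0.09 in NS and 0.11 in IUGR.

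At week 8 no member passed between IUGR and NS either, with 0.0% of all genes called by edgeR, 0 of the 31 at an unadjusted p under 0.05 and 0 of the 31 called by DESeq2. Libraries of the 2 groups overlapped for each of the 31 genes, while 4.08% of all genes were higher and 9.01% lower without overlap (13.1% in either direction). The median log2 fold change was -0.01, beside 0.02 over all genes. Shank1 had the lowest value, -0.69 ± 0.93, and Camk2d the highest, 0.53 ± 0.64. Read by replicate number on TMM-scaled CPM, the direction of the IUGR difference turned. In replicate 1, 27 of the 31 were above NS (median 0.29), beside 8692 of the 15999 genes tested (median 0.03). In replicate 2, 9 were (median -0.13), beside 8129 of all genes (median 0.01). Each of these sets 1 library against 1. Above in replicate 1 and below in replicate 2 were 21, beside 26.7% of all genes. Above in both were 6, beside 27.4%, and below in both was 1, Homer3, beside 21.8%. Shank1 read 105 CPM in IUGR and 84.3 CPM in NS in replicate 1, and 349 and 686 CPM in replicate 2. Ppp3ca and Ppp3r1 went the other way. Ppp3ca read 793 CPM in IUGR and 905 CPM in NS in replicate 1, and 2698 and 1771 CPM in replicate 2. Camk2b was below NS under both numbers in CPM (447 against 477, and 1658 against 1679), and after TMM scaling its log2 differences were -0.01 and 0.05. The sizes stayed within 1 log2 unit for every member under both numbers. Leaving out 1 week 8 library moved the median of the 31 between -0.46 (without IUGR replicate 2) and 0.80 (without NS replicate 2), and 0 members were called in each case.

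**Figure D5:**
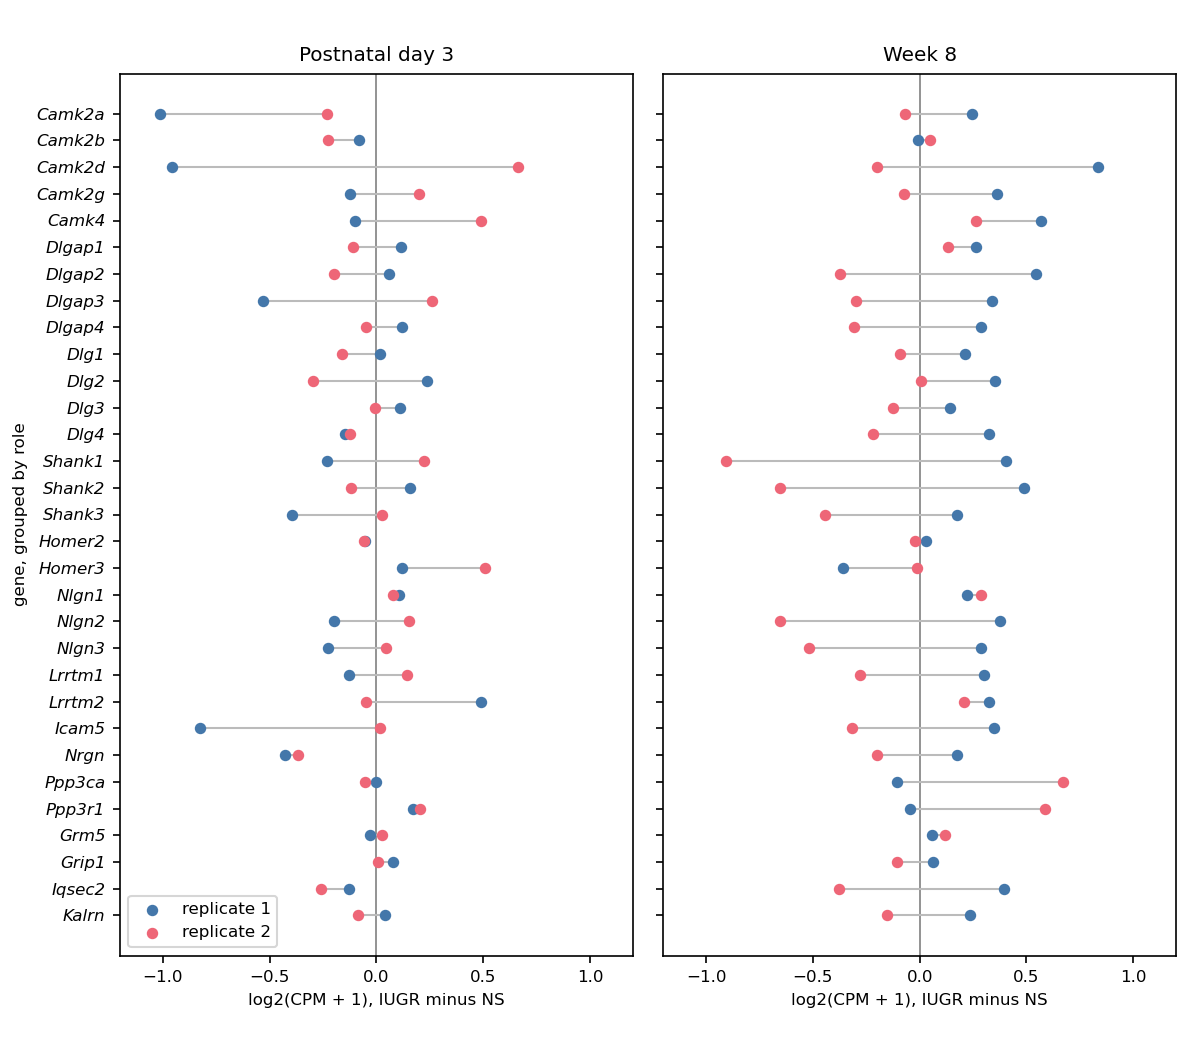
IUGR minus NS in log2 of TMM-scaled CPM + 1 for each of the 31 genes at postnatal day 3 (left) and week 8 (right), with replicate 1 in blue and replicate 2 in red, 1 library per group and point. At week 8 the blue points lie to the right of 0 for 27 genes and the red points for 9, beside 8692 and 8129 of all 15999 genes tested.

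The difference of the IUGR effect between the ages was tested as an interaction. No member passed, nor did any gene (0.0%), none had an unadjusted p under 0.05, and DESeq2 called 0. The median was 0.06 on the log2 scale, beside 0.01 over all genes, with values from -0.71 ± 1.32 in Shank1 to 0.59 ± 1.51 in Camk2a. The standard errors come from 1 fit to all libraries, in which each gene's spread was estimated over both ages together. The common biological coefficient of variation of that fit was 0.374, where postnatal day 3 alone gave 0.154 and week 8 alone 0.498.

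Other genes of the postsynaptic density came from a list of 106, of which 105 were tested and none is among the 31. In NS 17 of the 105 rose from postnatal day 3 to week 8 and 1 fell, beside 7.7% and 6.44% of all genes tested. In IUGR 20 rose and 2 fell, beside 9.34% and 7.48%. These calls are from the fit on all 8 libraries and were not recounted with libraries left out. The medians of 0.58 and 0.63 were below those of the 31. Rgs14, a signalling inhibitor of CA2 neurons, read 4.13 and 3.14 CPM in NS and then 57.2 and 128 CPM (log2 fold change 4.71 ± 0.67, edgeR adjusted p = 0.00992). Rasgrf1, a calcium-dependent activator of Ras, read 24.6 and 18 CPM and then 291.5 and 555 CPM (4.34 ± 0.57, edgeR adjusted p = 0.00810). Camk2n1, an inhibitor of CaM kinase II, read 117 and 116 CPM and then 485 and 932 CPM (2.64 ± 0.41, edgeR adjusted p = 0.0126). Their week 8 libraries were far above those of postnatal day 3, and replicate 2 of week 8 was again the higher. Cask, a scaffold kinase found on both sides of the synapse, fell from 209 and 226 CPM to 96.6 and 59.7 CPM in NS (-1.45 ± 0.34, edgeR adjusted p = 0.0371) and in IUGR (-1.42 ± 0.34, edgeR adjusted p = 0.0349). Ephb2, an ephrin receptor of dendrites, fell in IUGR (-1.66 ± 0.41, edgeR adjusted p = 0.0390). In the comparisons of IUGR with NS none of the 105 was called or had an unadjusted p under 0.05 at either age. In the same fit and beside the same shares of all genes, neuron markers rose in 4 of 12 and fell in 2 of 12 in NS. Markers of immature neurons fell in 6 of 8 in NS. Oligodendrocyte markers rose in 8 of 10, from a summed 206 to 256 CPM to between 4355 and 5676 CPM. The part of these changes in cell make-up in the postsynaptic values was not tested.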

How the data were processed

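Total RNA, depleted of ribosomal RNA, primed at random and sequenced in paired ends, was measured in 8 hippocampal libraries, per the labels' protocols. Per the submitters' processing notes the build was mm10 and the tools included featureCounts 1.6.1, HISAT2 2.1.0, cutadapt 1.16, DESeq2 1.26.0 and SAMtools 1.9. For strandedness and annotation, nothing is given in the sources used here. The authors deposited raw counts per gene symbol, used here as deposited, with a gene length in bases. CPM is the count over the library total.

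All 8 libraries were fitted together in edgeR 4.0.16 (R 4.3.3; 4 group means, TMM factors 0.95 to 1.03, the default expression filter, 15999 genes, 31 of the 31 members). Quasi-likelihood tests were adjusted over all genes by Benjamini-Hochberg, at 0.05. The SE is the log2 fold change over the square root of F. Differences within a replicate number used log2(TMM-scaled CPM + 1) and have no test. Positions come from GENCODE M21. Alternatives used DESeq2 1.42.0 and limma 3.58.1. The members and lists were chosen with earlier results of these data known. Full values were given for members that passed in any comparison, the highest and lowest per kilobase, and Camk2a at postnatal day 3; other members and the sequences were picked after their values were seen. From the other postsynaptic genes, those with the smallest p in each direction were named.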

Additional observations from a re-analysis of the deposited data

Results flagged for a closer look

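Homer3 was the 1 member whose IUGR difference went one way in both replicate numbers at postnatal day 3 and the other way in both at week 8. On the TMM-scaled CPM used for this, its log2 differences were 0.12 and 0.51 at postnatal day 3. At week 8 they were -0.36 in replicate 1 and only -0.01 in replicate 2. The share of all genes with such a reversal was not counted. IUGR was above NS in both numbers for 28.2% of all genes tested at postnatal day 3 and 27.4% at week 8. It was below NS in both for 24.5% and 21.8%. The same direction in both numbers was thus common at each age, and 1 reversing member cannot be set above the background. The NS libraries of Homer3 at postnatal day 3 held 7.15 and 5.48 CPM, below the 7.82 and 8.27 CPM of IUGR. At week 8 its IUGR libraries held 11.2 and 49.0 CPM, each below the NS library of the same number (15.6 and 51.8 CPM). The test of the difference between ages did not pass (log2 difference -0.44 ± 1.09, edgeR adjusted p = 1).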

How the results depend on the processing

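The 0 member calls in the IUGR comparisons at each age and in their difference held under each alternative run. Among all genes, DESeq2 on each age alone called 2 higher and 59 lower at postnatal day 3 and 1 lower at week 8, and with the replicate block 11 and 3 lower. Without the week 8 libraries numbered 1, edgeR called 2 genes higher at week 8 and 2 in the difference between ages. The counts for maturation moved. DESeq2 on all libraries called 14 members in NS (13 higher and 1 lower, beside 23.5% of all genes) and 15 in IUGR. With 1 library left out the count ran from 0 to 17 in NS and from 0 to 11 in IUGR, and the lone library of a group then takes its spread from the other groups. Chosen after seeing the data, leaving out both week 8 libraries numbered 1 gave 27 and 28 calls (beside 57.8% and 56.0% of all genes), leaving out both numbered 2 gave 18 and 23 (37.9% and 41.4%), and leaving out both of postnatal day 3 numbered 2 gave 0 and 0. The cause was not tested. Other scalings, count filters, limma voom and a minimum fold change kept the counts at 6 to 8. Upper-quartile scaling moved the median of all genes in IUGR maturation from 0.02 to -0.09. Of 270 values of single genes under alternatives, 195 kept their side of the threshold, 75 lost their call and 0 changed direction. These values cover only the members called for maturation in the main fit, and Camk2a at postnatal day 3. Outside that choice, Shank2 and Dlgap4 differed in direction between alternatives. Family shares on raw counts moved by more than 1 SD in 36 of 80 cases.

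With the replicate block, 23 members passed in NS (21 higher and 2 lower, beside 47.9% of all genes) and 24 in IUGR (22 and 2, beside 50.4%). The labels do not pair the numbers. Deviations of same-numbered libraries from their group means correlated at 0.854 at week 8 and -0.0747 at postnatal day 3, and the block is given for this reason as an alternative. It called 0 members in each IUGR comparison.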
